A study of Homo sapiens with 12 samples.

Results

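The mitochondrial ribosomal protein genes described here were the 78 protein-coding genes whose GENCODE symbol was MRPL or MRPS followed by a number and at most 1 letter, out of 20033 protein-coding genes on chromosomes 1 to 22, X and Y. They comprised 49 MRPL and 29 MRPS genes, and the rule reads the symbol only. A gene was called HSF1-bound when the summit of an HSF1 peak lay within 1 kb of any of its annotated transcript starts. The binding data came from CUT&Tag, in which an antibody directs a transposase to the chromatin around its target. In Huh7 cells, 27 of the 78 genes (34.6%, 95% Wilson interval 25 to 45.7) carried an HSF1 peak, against 25.4% of all protein-coding genes.

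Huh7 is a human hepatocellular carcinoma (HCC) line, and both libraries used here were made from WT cells that received no treatment, so no heat shock and no siRNA had been applied. The study asked what part the heat shock transcription factor HSF1 plays in HCC progression and prognosis. As a part of this, it examined where HSF1 binds and how this relates to H3K27ac, a histone mark of active promoters and enhancers. In the paper H3K27ac served as the positive control of CUT&Tag, and the H3K27ac comparisons used ChIP-seq. There was 1 HSF1 and 1 H3K27ac CUT&Tag library, which leaves every difference without a replicate check and without a p-value, and the intervals cover counting error only. The HSF1 list held 7147 peaks from 2712212 tags after duplicate removal, of 3604911 in all. The H3K27ac list held 1299 peaks from 896393 tags, of 15737890 in all. The peaks were called without a control library, and the library without primary antibody was not used here. Of 12 liver genes, such as ALB, APOA1 and HNF4A, 3 had an HSF1 peak and 0 had an H3K27ac peak, so the H3K27ac list did not show the liver origin of the cells.

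The mitochondrial ribosome translates the few messages of mitochondrial DNA, which encode core subunits of the respiratory chain and of ATP synthase. Its RNAs are mitochondrial, but its proteins are encoded in the nucleus, made in the cytosol and imported. MRPL names belong to the large subunit, which forms peptide bonds, and MRPS names to the small subunit, which reads the mRNA. The names are not exact: the products of MRPS30 and MRPS18A are found in the large subunit, MRPL58 derives from a peptide release factor, and MRPS36 works with a dehydrogenase complex rather than the ribosome. Promoters of such housekeeping genes are often rich in CpG, lack a TATA box, and are frequently shared with a neighbour read in the opposite direction. Among their common elements are the CCAAT box, bound by the factor NF-Y, and the sites of ETS factors, NRF1 and YY1.

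A CCAAT box was found at 9 of 27 HSF1-bound members (33.3%) and 5 of 51 unbound members (9.80%). Over all protein-coding genes it was found at 36.7% of the bound and 25.7% of the unbound. The promoter stretches below belong to the members with 2 or more CCAAT boxes. They are read from hg38 on the gene's strand, 5′ to 3′. The first 4 contain no annotated exon, and MRPL47 is given as a window of 25 bases around its boxes. Capitals mark CCAAT or its reverse complement ATTGG. The MRPS12 stretch (chr19:38930794-38930943, plus strand), the MRPS30 stretch (chr5:44808797-44808946, plus strand) and the MRPL37 stretch (chr1:54200074-54200166, plus strand) end at the base before the canonical start, and all 3 genes were HSF1-bound. The MRPL41 stretch (chr9:137551729-137551878, plus strand) and the MRPL47 site (chr3:179604749-179604773, minus strand) come from unbound genes.
MRPS12: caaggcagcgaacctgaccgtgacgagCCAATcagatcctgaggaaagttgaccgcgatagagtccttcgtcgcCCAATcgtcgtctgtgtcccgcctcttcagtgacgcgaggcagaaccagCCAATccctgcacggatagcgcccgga
MRPS30: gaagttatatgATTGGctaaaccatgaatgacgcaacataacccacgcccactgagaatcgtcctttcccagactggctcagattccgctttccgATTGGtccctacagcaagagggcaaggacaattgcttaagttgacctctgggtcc
MRPL37: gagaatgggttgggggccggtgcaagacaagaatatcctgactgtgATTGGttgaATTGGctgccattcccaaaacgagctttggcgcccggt
MRPL41: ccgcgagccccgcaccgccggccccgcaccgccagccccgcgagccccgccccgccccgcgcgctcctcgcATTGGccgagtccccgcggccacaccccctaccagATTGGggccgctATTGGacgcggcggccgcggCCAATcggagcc
MRPL47: gctgagagagCCAATttaCCAATga
In MRPS12 the 3 boxes all read CCAAT along the gene and begin 123, 76 and 27 bp before the start. In MRPS30 and MRPL37 every box reads in the opposite direction, at 139 and 55 bp and at 47 and 38 bp before the start. MRPL41 holds 4 boxes and still had no HSF1 peak, so boxes alone did not sort the genes.

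HSF1 peaks were found in both name groups. Of the MRPL genes, 18 of 49 were bound (36.7%, 24.7 to 50.7), and of the MRPS genes 9 of 29 (31.0%, 17.3 to 49.2). These intervals overlap widely, and the share of all genes, 25.4%, lies inside both. The interval of all 78 members, 25 to 45.7%, also includes it. The bound MRPL genes were MRPL2, MRPL4, MRPL11, MRPL17, MRPL18, MRPL21, MRPL24, MRPL32, MRPL34, MRPL36, MRPL37, MRPL38, MRPL40, MRPL42, MRPL50, MRPL54, MRPL55 and MRPL57. The bound MRPS genes were MRPS7, MRPS9, MRPS12, MRPS18C, MRPS21, MRPS24, MRPS27, MRPS28 and MRPS30. Proteins classed as having a counterpart in the bacterial ribosome and the remaining proteins, which include MRPL58 and MRPS36, did not separate. Of the former 16 of 46 genes were bound (34.8%, 22.7 to 49.2), and of the latter 11 of 32 (34.4%, 20.4 to 51.7).

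The tallest peak by fold enrichment, which divides the summit pileup by the background around it with 1 added to each, was that of MRPS12. MRPS12 is the counterpart of bacterial S12, which takes part in decoding. Its peak (chr19:38930391-38930959) reached 24 tags and a fold enrichment of 10.2. The summit lay 171 bp before the MRPS12 start and 10 bp from a start of SARS2, the mitochondrial seryl-tRNA synthetase. MRPL18, whose bacterial counterpart binds 5S rRNA, came next with 25 tags and a fold enrichment of 10.1. MRPL40 followed with 19 tags and 9.17. These peaks stood above the upper quartile of all bound protein-coding genes in fold enrichment, 8.74, and no other member did.

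MRPL11, the counterpart of the bacterial protein at the base of the factor-binding stalk, had the most tags, 36 at the summit. Its local background was also the highest of the members, 3.46 tags, and its fold enrichment was 8.30. MRPS24 reached 15 tags and 8.25, and MRPS27, a pentatricopeptide repeat protein, 14 tags and 7.98. MRPS9 reached 11 tags and 7.89, and MRPL17, whose product sits near the peptide exit, 12 tags and 7.83. MRPL38 had 16 tags and 7.80, and MRPL55 had 15 tags and 7.69. The 10 tallest peaks were a mixture of 6 MRPL and 4 MRPS genes. The 12 genes between these and the lowest 5 reached fold enrichments from 5.81 at MRPL50, with 9 tags, to 7.62 at MRPL54, with 15 tags.

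**Figure D1:**
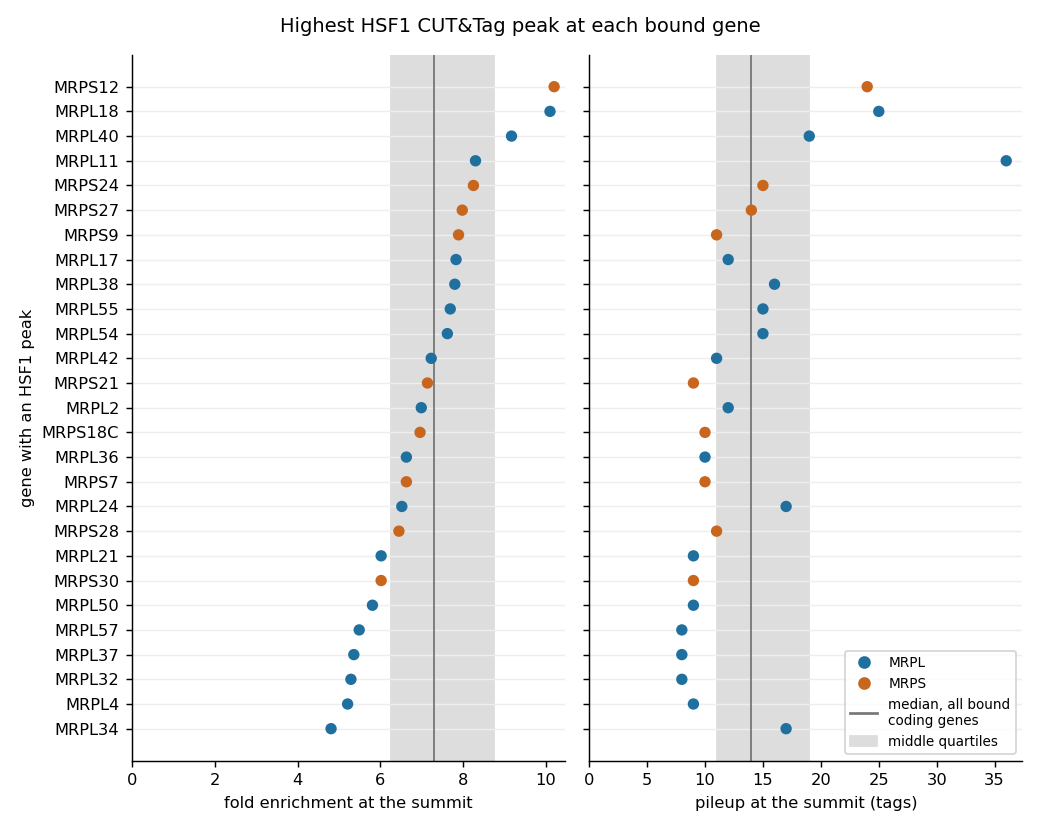
Each row is an HSF1-bound gene and each point its highest HSF1 peak in the 1 library, as fold enrichment on the left and pileup in tags on the right. The line and band are the median and middle quartiles of all 5098 bound protein-coding genes; MRPS12 and MRPL18 lead in fold enrichment, while MRPL11 leads in pileup with 36 tags.

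The lowest fold enrichments all belonged to MRPL genes. MRPL34 had 17 tags but a fold enrichment of only 4.81, over a local background of 2.74 tags. MRPL4, whose bacterial counterpart lines the exit tunnel, had 9 tags and 5.21. MRPL32, MRPL37 and MRPL57 had 8 tags each, with 5.29, 5.36 and 5.49. These 5 peaks made up the low end of the members. Over the 27 bound genes the median was 11 tags (range 8 to 36) and a fold enrichment of 6.99 (4.81 to 10.2). The 5098 bound protein-coding genes had medians of 14 tags and 7.29. Peaks at the members were also shorter, with a median length of 276 bp against 391 bp. The 18 MRPL peaks had a median fold enrichment of 6.81 and the 9 MRPS peaks of 7.14, within ranges that overlap (4.81 to 10.1 and 6.02 to 10.2).

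At 3 members there were 2 HSF1 peaks, each near a different annotated start. At MRPL18 the taller peak, with 25 tags, lay 617 bp before the canonical start and 147 bp from a start of TCP1, a subunit of the cytosolic chaperonin. The smaller one, with 13 tags and a fold enrichment of 5.43, lay 35 bp before the canonical MRPL18 start. At MRPS27 the taller peak stood at an internal start 11885 bp into the gene, and a peak of 8 tags and 5.62 lay 69 bp before the canonical start, 58 bp from PTCD2. At MRPL11 the peak of 36 tags lay 230 bp before the canonical start, and a peak of 20 tags and 6.36 stood at an alternative start 27880 bp upstream, 17 bp from PELI3. The peak nearest to the canonical start was thus the taller one at MRPL11, and the smaller one at MRPL18 and MRPS27.

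The HSF1 summits were close to the starts. Measured from the canonical start and taking the nearest peak of each gene, the median distance was 124.0 bp, 24 of 27 summits lay within 250 bp and 13 within 100 bp. Of the 27, 21 were upstream of the start. The farthest was MRPL4, at 319 bp upstream. Measured from the nearest annotated start, the farthest were MRPL54 at 278 bp downstream, MRPL21 at 269 bp upstream and MRPL32 at 211 bp upstream. All 27 lay within 300 bp of a start, against 87.6% of the bound protein-coding genes.

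**Figure D2:**
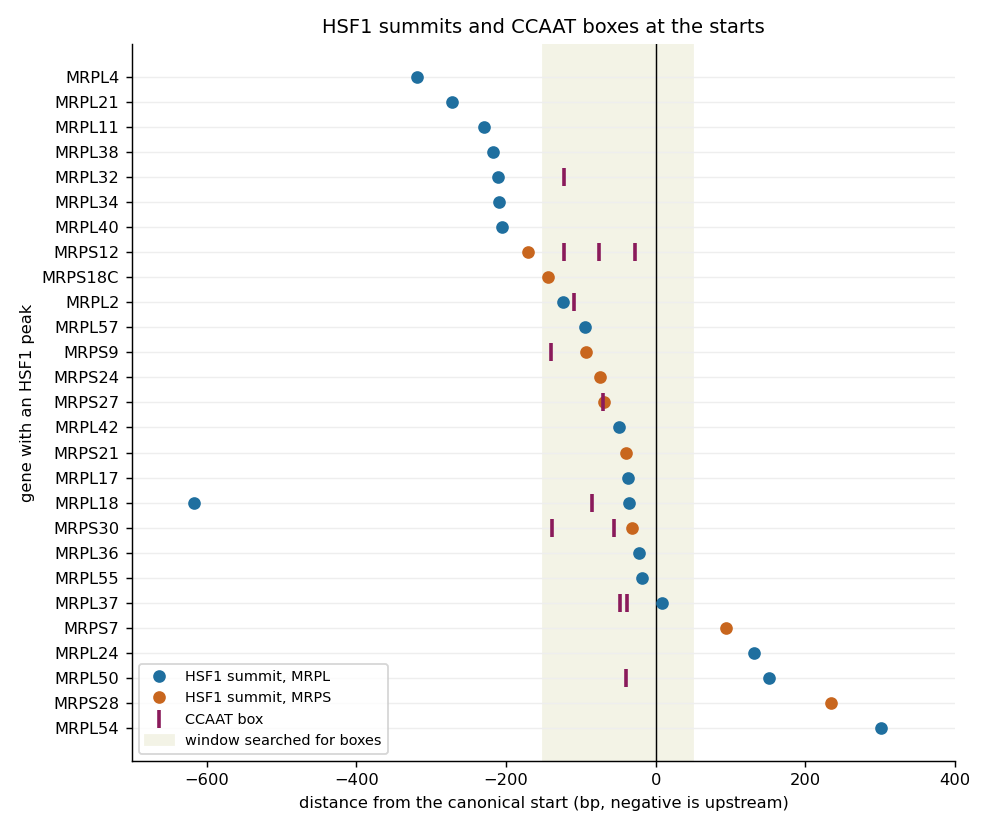
Each row is an HSF1-bound gene, the x axis the distance from its canonical start in bp, circles the HSF1 summits and bars the first base of each CCAAT box in the shaded window. Summits gather between 319 bp upstream and 301 bp downstream, apart from the taller MRPL18 peak at 617 bp upstream; the second peaks of MRPS27 and MRPL11 lie outside the plotted range.

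No unbound member was near the 1 kb limit. The closest summits lay 2132 bp from a start of MRPS33, 3747 bp from MRPL35 and 5382 bp from MRPS16. The 51 unbound members had a median distance of 56.0 kb to the nearest summit, and for 17 of them it exceeded 100 kb. Widening the window to 2 kb or narrowing it to 500 bp therefore left the count at 27.

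The promoters of 3 unbound members, MRPS36, MRPS18B and MRPL45, occur again, letter for letter, on alternate sequences of hg38 that stand beside the chromosomes. None of the 3 had an HSF1 peak on its chromosome, and each had an HSF1 summit within 1 kb of a promoter copy on an alternate sequence of chromosome 5, 6 or 17. Among all protein-coding genes, 721 had such a copy and 44 of these were bound on the chromosome (6.10%), while 51 (7.07%) had a summit on a copy. Counting summits on copies gave 30 of 78 members (38.5%, 28.4 to 49.6) against 25.6% of all genes. Leaving out genes with a copy gave 27 of 75 (36%, 26.1 to 47.3) against 26.2%. These counts were added after the peaks had been seen, and how reads with several matches were placed was not tested.

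Divergent promoters were more frequent among the members. A partner, meaning a start of another protein-coding gene on the opposite strand at most 1 kb away head to head, was present at 31 of 78 members (39.7%, 29.6 to 50.8) against 16.2% of all protein-coding genes. It was present at 23 of 49 MRPL genes (46.9%, 33.7 to 60.6) and 8 of 29 MRPS genes (27.6%, 14.7 to 45.7). The median gap between the paired starts was 82.0 bp, against 103.0 bp over all divergent genes. At 5 members, MRPL9, MRPL11, MRPL36, MRPL52 and MRPS34, the pairing rests on an alternative start, and with canonical starts only the share of members was 33.3%.

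Within each class of promoter, the members were bound about as often as other genes. Of the divergent members 15 of 31 were bound (48.4%, 32.0 to 65.2), against 48.1% of all divergent protein-coding genes. Of the members without a partner 12 of 47 were bound (25.5%, 15.3 to 39.5), against 21.1%. The difference of 9.17 percentage points between the members and all genes was thus larger than the difference within either class. Peak heights did not separate the classes among the members. The 15 divergent members had a median of 10.0 tags and a fold enrichment of 6.96, and the 12 others had 11.5 tags and 7.19.

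**Figure D3:**
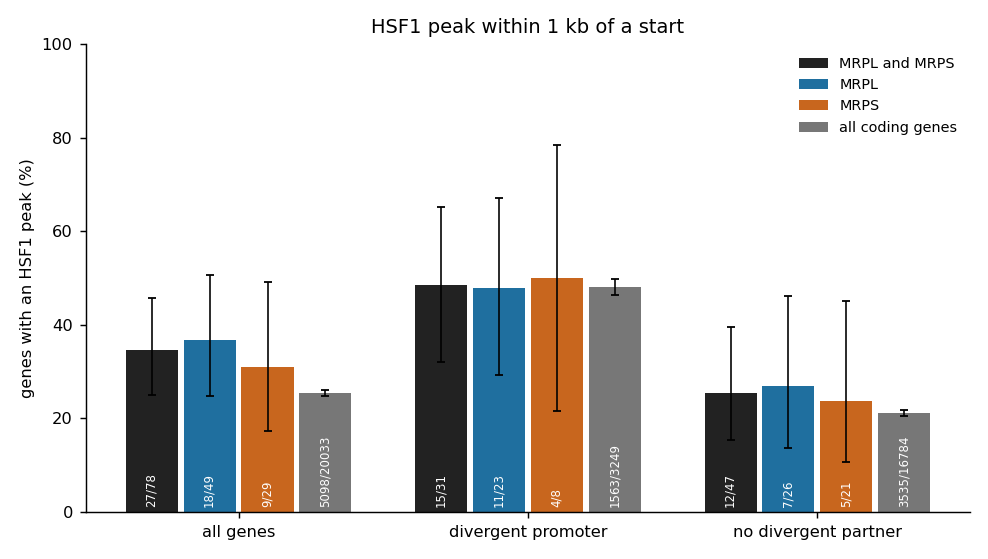
Bars give the percentage of genes with an HSF1 peak summit within 1 kb of a start, over all genes, genes with a divergent coding partner and genes without one; error bars are 95% Wilson intervals and the numbers in the bars are counts. Members and all protein-coding genes stand at 48.4% and 48.1% in the divergent class, and at 25.5% and 21.1% without a partner.

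The genes across the bound divergent promoters had varied functions. Besides SARS2 and TCP1 they included PSMA2, a proteasome subunit whose start lay 1 bp from the MRPL32 summit, and SKA3, a kinetochore protein whose start lay 12 bp from the MRPL57 summit. HIRA, a histone chaperone, faced MRPL40 across 812 bp, and the summit was 205 bp from MRPL40 and 607 bp from HIRA. HELQ, a DNA helicase, faced MRPS18C, and KLC4, a kinesin light chain, faced MRPL2 across 193 bp. Taking the peak nearest to any start of the member, it was also within 1 kb of the partner's start in 12 of the 15, and the smaller MRPS27 peak was within 1 kb of PTCD2. Its summit was closer to the member's own start in 10 pairs and closer to the partner's in 5. In these shared promoters the peak cannot be assigned to either gene from its position. MRPL46 and MRPS11 were the only members that faced each other, across 63 bp, and neither had an HSF1 peak.

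CCAAT boxes were searched on both strands from 150 bp upstream to 50 bp downstream of the canonical start. The members had fewer of them than protein-coding genes in general: 14 of 78 promoters held at least 1 (17.9%, 11 to 27.9) against 28.5%. Those 14 genes were bound more often. Of the members with a box 9 of 14 were bound (64.3%, 38.8 to 83.7), and of those without 18 of 64 (28.1%, 18.6 to 40.1). Over all protein-coding genes the shares were 32.8% with a box and 22.5% without. The direction was the same in both name groups, at 5 of 8 against 13 of 41 MRPL genes and 4 of 6 against 5 of 23 MRPS genes. With so few promoters holding a box, the intervals of members with and without a box overlap slightly. Divergent promoters made up 9 of the 14 with a box, and 7 of these 9 were bound against 8 of 22 divergent promoters without one. Among members with no divergent partner it was 2 of 5 with a box (40%, 11.8 to 76.9) and 10 of 42 without (23.8%, 13.5 to 38.5), intervals that overlap widely.

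The bound genes with a box were MRPS12, MRPS30 and MRPL37, printed above, and MRPS9, MRPS27, MRPL2, MRPL18, MRPL32 and MRPL50 with 1 box each. The sites of MRPS27 (chr5:72320297-72320321, minus strand) and MRPL2 (chr6:43059529-43059553, minus strand) are shown because their HSF1 summits lay closest to the box. The MRPS27 summit near the canonical start was 69 bp upstream of it, and the box began 71 bp upstream. The MRPL2 summit was 124 bp upstream, and the box began 109 bp upstream.
MRPS27: agggattcgtCCAATtctgggcgcc
MRPL2: ctgcccgcggATTGGctctcacggc
Around the summit of the tallest peak of each gene, a box was found within 100 bp in 12 of the 27 bound members (44.4%). Among the bound protein-coding genes it was 36.5%. At MRPS27 the tallest peak is the one at the internal start, not the one described above. No interval was computed for these shares. Only 2 of the 78 member promoters held a heat shock element, the inverted repeat that HSF1 is known to recognise, allowing 1 mismatch among the 9 bases it fixes (2.56%, 0.706 to 8.88). Over all protein-coding promoters the share was 2.69%. The element was found at 0 of 27 bound members and 2 of 51 unbound members. Over all protein-coding genes it was found at 2.26% of the bound and 2.83% of the unbound, so HSF1-bound promoters showed no excess of it.

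The ETS core CCGGAA, searched on both strands, was common in these promoters. It was present in 40 of 78 member promoters (51.3%, 40.4 to 62.1) against 18.8% of all. Members with it were bound less often than members without it, at 9 of 40 (22.5%, 12.3 to 37.5) against 18 of 38 (47.4%, 32.5 to 62.7). Over all protein-coding genes the order was the opposite, 36.1% with and 23% without. That opposite order lay in genes without a divergent partner, at 31.7% with and 19.0% without. All divergent genes stood at nearly equal shares, 48.5% with and 47.9% without. The order among the members was the same in MRPL genes (6 of 27 against 12 of 22), in MRPS genes (3 of 13 against 6 of 16), in divergent promoters (5 of 15 against 10 of 16) and in the others (4 of 25 against 8 of 22). Of the promoters with an ETS core and no CCAAT box 6 of 35 were bound (17.1%, 8.10 to 32.7), against 33.3% of all such genes. The group includes MRPS36, counted as unbound here although an HSF1 summit stood at its promoter copy. An interval with copies counted was not computed for this group. With peaks on the chromosomes only, the upper end of the interval of that group, 32.7%, lies just below the general share of 33.3%. Whether it stays below with MRPS36 counted as bound was not tested. The split was noted in these same data.

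The unbound promoters of MRPS10 (chr6:42217862-42218011, minus strand), MRPS31 (chr13:40771191-40771340, minus strand) and MRPS18A (chr6:43687792-43687941, minus strand) illustrate this type. They are shown 5′ to 3′ on the gene's strand up to the base before the start, with the ETS core or its reverse complement in capitals.
MRPS10: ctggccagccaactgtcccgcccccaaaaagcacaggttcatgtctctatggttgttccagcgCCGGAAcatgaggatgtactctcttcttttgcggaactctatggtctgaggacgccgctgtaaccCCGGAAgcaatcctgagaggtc
MRPS31: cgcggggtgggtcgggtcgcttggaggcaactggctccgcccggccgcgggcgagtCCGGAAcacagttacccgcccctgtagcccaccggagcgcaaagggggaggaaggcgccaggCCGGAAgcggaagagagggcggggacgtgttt
MRPS18A: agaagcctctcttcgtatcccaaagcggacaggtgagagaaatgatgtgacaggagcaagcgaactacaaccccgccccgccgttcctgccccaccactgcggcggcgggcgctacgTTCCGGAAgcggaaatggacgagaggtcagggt
Each of the 3 stretches holds 2 cores, and in MRPS18A the cores overlap on opposite strands. The nearest HSF1 summit lay 322 kb from MRPS10, 23.8 kb from MRPS31 and 57.6 kb from MRPS18A.

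The YY1 motif ATGGCGG was also frequent, at 24 of 78 member promoters (30.8%, 21.6 to 41.7) against 6.84%. Of its 25 sites 22 lay downstream of the start (88.0%, against 67.3% over all genes), and 21 read along the gene (84.0%, against 69.2%). Bound and unbound members carried it in similar shares, 9 of 27 (33.3%) and 15 of 51 (29.4%). The sites of the bound genes MRPS24 (chr7:43869479-43869505, minus strand), MRPS9 (chr2:105038083-105038109, plus strand) and MRPL42 (chr12:93467515-93467541, plus strand) are shown with the motif in capitals.
MRPS24: ttggcccaagATGGCGGcctccgtgtg
MRPS9: cacagctaacATGGCGGcgccctgtgt
MRPL42: ttgaaacaagATGGCGGgttcgtggtg
In each of the 3 the motif lies downstream of the start and reads along the gene. The motif contains ATG, and whether its sites overlap the start of the coding sequence was not tested.

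The GC box GGGCGG was present at 40 of 78 members (51.3%) against 55.7%, at 21 of 49 MRPL genes and 19 of 29 MRPS genes. As with the ETS core, members with it were bound less often than members without it, 11 of 40 (27.5%, 16.1 to 42.8) against 16 of 38 (42.1%, 27.9 to 57.8), while over all genes the shares were 31.8% and 17.4%. The intervals of the members overlap. The NRF1 motif GCATGCGC or CGCATGCG was found at 6 of 78 members (7.69%, 3.57 to 15.8) against 3.70%, and the E-box CACGTG at 4 (5.13%, 2.01 to 12.5) against 6.66%.

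**Figure D4:**
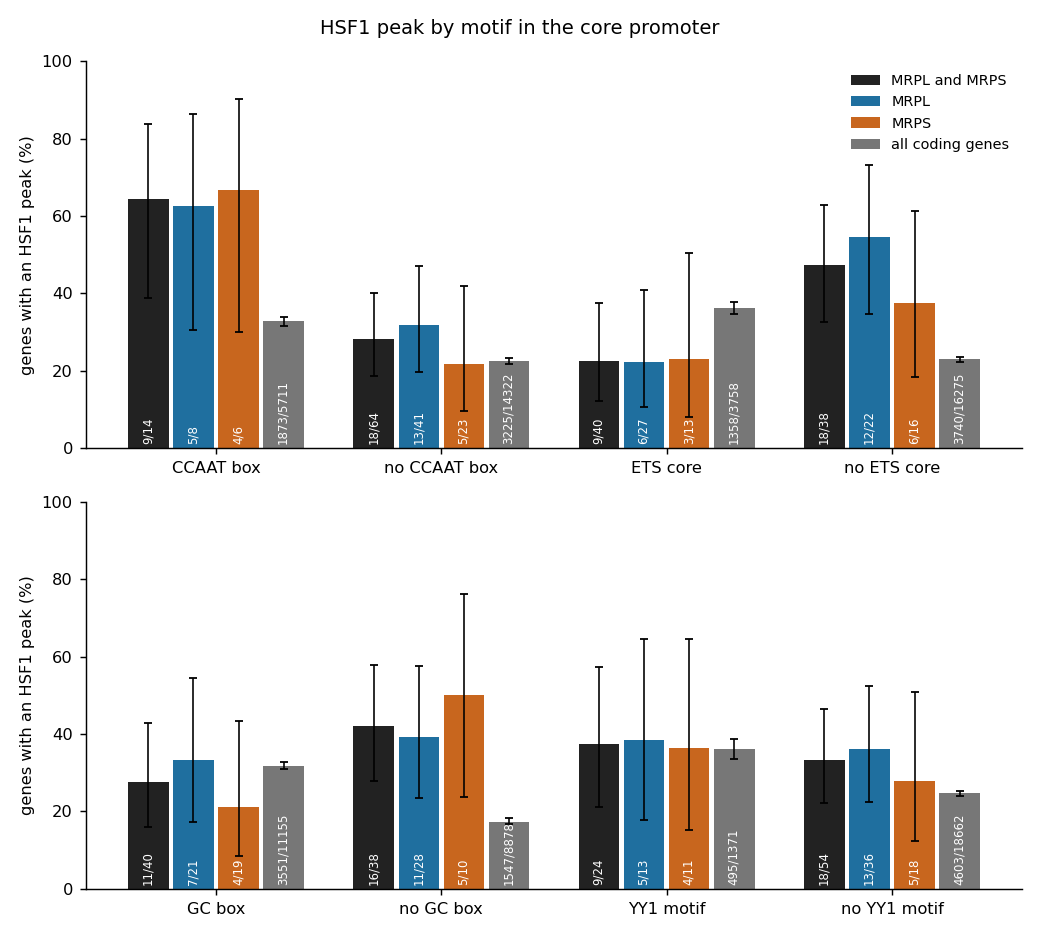
Bars give the percentage of genes with an HSF1 peak among promoters with and without each motif; error bars are 95% Wilson intervals and the numbers in the bars are counts. For the CCAAT box members and all genes go the same way, while for the ETS core members fall from 47.4% without to 22.5% with it and all genes rise from 23% to 36.1%.

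The median GC content of bound and unbound genes also differed in opposite directions in the members and in all genes. The bound members had a median GC content of 60.0% in the promoter window, and the unbound members 64.5%. Over all protein-coding genes the bound were the richer in GC, at 68.0% against 64.5%. Between 50 and 60% GC, 13 of 25 members were bound (52.0%, 33.5 to 70.0) against 19.2% of all genes. Between 60 and 70% GC, 8 of 36 were bound (22.2%, 11.7 to 38.1) against 34.9%, and between 70 and 80% GC, 6 of 12 (50%, 25.4 to 74.6) against 31.6%. In the outer bins, 0 of 2 members were bound between 40 and 50% GC and 0 of 3 between 80 and 90%. All genes stood at 5.19% and 15.7% there. Across the bins the share of bound members thus did not rise or fall steadily with GC. GC content and the motifs were not separated from each other in this comparison.

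H3K27ac peaks were found at 6 of the 78 members (7.69%, 3.57 to 15.8), against 3.31% of all protein-coding genes. With peaks of a -log10 q of at least 5 the shares were 3.85% and 1.28%. The 6 genes were MRPL3 (7 tags, fold enrichment 6.67), MRPS18B (9 tags, 6.58), MRPL23 (5 tags, 4.92), MRPL21 (6 tags, 5.07), and the facing pair MRPL46 and MRPS11, which share a peak of 10 tags and 7.43. That shared peak counts once for each gene of the pair in these shares, and the intervals treat the pair as independent. On the chromosomes, MRPL21 alone had an HSF1 peak as well, with 9 tags and a fold enrichment of 6.02, and both summits lay in an intron of IGHMBP2, 114 bp and 212 bp from its start. Of the members with an H3K27ac peak 1 of 6 had an HSF1 peak (16.7%, 3.01 to 56.4), against 515 of 664 protein-coding genes (77.6%, 74.2 to 80.6). Of the HSF1-bound members 1 of 27 had an H3K27ac peak (3.70%, 0.657 to 18.3), against 10.1% of the HSF1-bound genes. Of the unbound members it was 5 of 51 (9.80%, 4.26 to 21), against 0.998%. MRPS18B is also among the genes with promoter copies, and H3K27ac summits stood at its chromosome 6 promoter and at copies of it, while an HSF1 summit stood at a copy only. Counting HSF1 summits on copies, 2 of 6 members with an H3K27ac peak had both (33.3%, 9.68 to 70), against 77.9% of all such genes. With 1299 peaks in the whole list, a missing H3K27ac peak does not show that the mark is missing.

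Other genes of mitochondrial translation gave a context for these counts. Of the mitochondrial translation factors 8 of 13 were bound (61.5%, 35.5 to 82.3). Of the mitochondrial aminoacyl-tRNA synthetases 10 of 17 were bound (58.8%, 36 to 78.4). A CCAAT box was found at 9 of their 17 promoters (52.9%), against 17.9% of the ribosomal protein genes. The synthetases stood apart in this. The other lists of mitochondrial genes ranged from 16% at the assembly factors to 33.3% at the 6 subunits that carry other names. Of the assembly factors of the ribosome 11 of 25 were bound (44%, 26.7 to 62.9), with the tallest peaks at TFB1M (34 tags, 13.9) and GRSF1 (32 tags, 12.5), named here after their values were seen. DAP3 and AURKAIP1 were bound among the 6 subunits of the mitochondrial ribosome that carry other names. The cytosolic ribosomal protein genes, which shared the high frequency of the ETS core (48.2%), were bound in 32 of 83 cases (38.6%, 28.8 to 49.3). All these intervals for HSF1 peaks overlap with that of the 78 members. A divergent partner, present at 39.7% of the members, was present at 53.2% of respiratory complex I genes (NDUF symbols). The share was 52% at the assembly factors, 41.2% at the synthetases and 30.8% at the translation factors. It was 30.8% at import genes (TIMM and TOMM symbols) and 24.1% at cytosolic ribosomal protein genes. The YY1 motif, at 30.8% of the members, was found at 38.3% of complex I genes and 24% of the assembly factors. It was found at 23.5% of the synthetases, 19.2% of import genes and 18.1% of cytosolic ribosomal protein genes. Among the translation factors it was found at 0 of 13. High shares of these features were thus not limited to the members, and did not extend to every list.

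**Figure D5:**
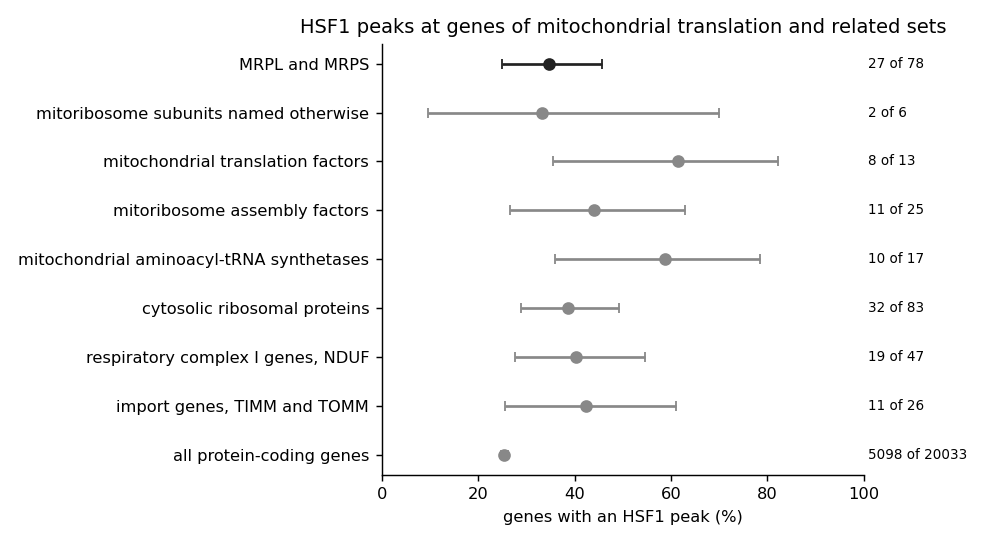
Points give the percentage of genes of each list with an HSF1 peak, lines the 95% Wilson intervals, and the counts stand on the right. The mitochondrial ribosomal protein genes, at 34.6%, have the lowest share of these lists except the 6 subunits named otherwise, and every list's interval overlaps with theirs.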

How the data were processed

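CUT&Tag libraries for HSF1 and H3K27ac from untreated Huh7 cells were analysed. Reads were aligned by the authors to hg38 with Bowtie2 according to the methods, and peaks were called per library with MACS2, whose header gives version 2.1.4, no control, a p-value threshold of 1e-05, a shift of -100 bp, an extension of 200 bp and removal of duplicate tags. The pileup deposited by the authors is a signal that counts extended tags over the summit. Their deposited fold enrichment is a ratio, pileup to local background after adding 1 to each. MACS2 also gave the deposited significance columns, a -log10 p-value and, beside it, a -log10 q-value. The header states that q-values were not calculated although the column holds values, so it served as a filter of the alternatives only. The ChIP-seq lists, whose headers name hg19, and the other samples were not used here.

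HSF1 and H3K27ac peaks of the autosomes, X and Y were joined to transcript starts of GENCODE release 44 on hg38. All 78 members matched by symbol. The local background was recovered from pileup and fold enrichment. Where a gene had several peaks, the one with the highest fold enrichment stands for it; the design also spoke of the nearest peak, which is given among the alternatives. Motifs were searched on both strands from 150 bp upstream to 50 bp downstream of the canonical start. Counterparts in the bacterial ribosome were assigned from protein names and general knowledge. Shares carry 95% Wilson intervals. With 1 library per condition, no test was possible.

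The members and lists were chosen with earlier results of these data known. Members were named by rule: the 10 bound genes with the highest and the 5 with the lowest fold enrichment, those with an H3K27ac peak as well, with 2 or more CCAAT boxes, with summits farthest from or, unbound, closest to a start, and those sharing a peak with a divergent partner. The printed sequences, the unbound members with H3K27ac peaks or promoter copies, and the split by ETS core were chosen after the values were seen. The calls were tested on simulated data, and all 6 kinds of planted items were recovered in full. Intervals came from SciPy 1.17.1, sequences were read with pysam 0.24.0, tables were handled with pandas 2.3.3 and NumPy 2.4.6 in Python 3.11.15, and plots were drawn with matplotlib 3.10.9.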

Additional observations from a re-analysis of the deposited data

How the results depend on the processing

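The share of HSF1-bound members was 34.6% in the report, 29.5% with the outermost start of each gene, 28.2% with peaks of a -log10 q of at least 5, and 38.5% with peaks on promoter copies counted, an alternative chosen after seeing the data. It exceeded the share of all protein-coding genes under each of the 8 alternatives, by 6.17 to 12.9 percentage points. H3K27ac peaks fell from 7.69% of members to 3.85% with the -log10 q of at least 5, while the share of all protein-coding genes fell from 3.31% to 1.28%. The share of members with a CCAAT box, 17.9%, was 10.3% from 100 bp upstream to the start, 28.2% from 250 bp upstream to 50 bp downstream, 7.69% for a longer form of 9 letters with set flanks and 10.6% among members without a divergent partner. It stayed below the share of all genes in each. Over all protein-coding genes, 36.7% of the bound and 25.7% of the unbound held a box. The difference in boxes between bound and unbound members, 23.5 percentage points, ranged from 10.9 to 32.7 with other windows and the longer form. It was 8.10 among members without a divergent partner. The cause was not tested. Each difference computed under the alternatives kept its direction. The order of the name groups was not among these differences, and it changed with the -log10 q of at least 5. There 26.5% of MRPL and 31.0% of MRPS genes were bound, against 36.7% and 31.0% in the report. The splits by ETS core, GC box, YY1 motif and GC content were not run under the alternatives. Nor was the overlap of HSF1 and H3K27ac peaks. Depth limits these values, since bound members had as few as 8 tags at a summit. No paired analysis was possible because there was 1 library per condition and no result comes from a test.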
